A study of Mus musculus with 16 samples.

Results

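The genes described are 10 that encode proteins which hepatocytes secrete into blood: the plasma carriers Alb, Afp, Gc, Ttr, Rbp4 and Serpina6, the fetuins Ahsg and Fetub, and the liver-derived signals Fgl1 and Lect2. They were found by symbol among the 55416 mouse Ensembl IDs of the deposited table, and all 10 of 10 were present and passed the filter on low values that left 11858 genes to test. RNA was sequenced from mouse primary hepatocytes, liver parenchymal cells taken freshly into culture. FLOX cells are labelled as lacking Cre recombinase under the albumin promoter (Alb-cre-), and HKO cells as carrying it (Alb-cre+), in a cre-loxP cross meant to remove Smpd3, a neutral sphingomyelinase, from hepatocytes. For 24 h the cells of both genotypes were kept with vehicle or with 0.4 mM of palmitic acid, a saturated fat that stands in for fatty liver inflammation in a dish, which gave 4 groups of 4 samples. No group carries Cre without the deletion, so an effect of Cre and an effect of losing Smpd3 cannot be told apart, and the Cre of the HKO cells is driven by the promoter of one of the 10 genes, Alb. The labels name neither strain, sex nor age, and they do not say whether replicates differ by mouse or by culture, so the p-values reflect only the spread over these samples, possibly a technical one.

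Hepatocytes make most of the protein of blood plasma. Albumin carries fatty acids, bilirubin and many drugs, and alpha-fetoprotein (Afp) is its relative in the fetus and is normally silenced after birth. The vitamin D binding protein Gc belongs to the same family. Transthyretin (Ttr) carries thyroxine and travels with retinol-binding protein (Rbp4), which brings vitamin A out of the liver, while Serpina6, the corticosteroid-binding globulin, carries glucocorticoids. The fetuins Ahsg and Fetub are neighbouring relatives of the cystatin family. Ahsg keeps calcium phosphate from precipitating and inhibits the insulin receptor, and Fetub inhibits the egg protease ovastacin. Fgl1, a fibrinogen-like protein induced by interleukin-6, binds the T cell receptor LAG3, and Lect2 is a hepatokine known as a target of beta-catenin signalling in the liver.

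RefSeq promoter windows were found for 7 of the 10 genes: Alb, Afp, Gc, Ahsg, Fetub, Rbp4 and Lect2. Those of the neighbouring relatives Alb and Afp, and Ahsg and Fetub, are shown, because the members of each pair differ in their level and in which comparisons they passed. The 120 bases before the annotated start were searched on both strands for the TATA box letters TATAAA. The sequences read 5′ to 3′ in the direction of transcription, from build GRCm38.p6 (RefSeq), with the TATA box letters in capitals. Fetub has 2 windows, and that of the annotated gene start is shown.
Alb, chr5:90460750-90460869, plus strand: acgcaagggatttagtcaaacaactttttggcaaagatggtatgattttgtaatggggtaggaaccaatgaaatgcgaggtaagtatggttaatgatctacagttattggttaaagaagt
Afp, chr5:90490594-90490713, plus strand: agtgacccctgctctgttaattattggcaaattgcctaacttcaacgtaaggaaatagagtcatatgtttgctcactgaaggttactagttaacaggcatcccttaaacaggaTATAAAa
Ahsg, chr16:22891895-22892014, plus strand: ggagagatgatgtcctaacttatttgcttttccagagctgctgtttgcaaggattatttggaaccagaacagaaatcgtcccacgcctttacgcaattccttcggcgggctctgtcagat
Fetub, chr16:22918262-22918381, plus strand: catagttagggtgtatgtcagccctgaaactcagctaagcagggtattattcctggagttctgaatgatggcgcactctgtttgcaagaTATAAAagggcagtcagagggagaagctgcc
The letters began 7 bases before the start in Afp and 31 in Fetub, both on the strand of the gene, and were not found in these windows of Alb and Ahsg. Of the 7 genes 3 had a window that held them: Afp with its 1 window, and Fetub and Rbp4 with 1 of 2 windows each. Over all genes, 2083 of 32851 windows of that length did (6.34%), a share of windows and not of genes. A match is a description of the letters and not a measured binding site. The starts are those of the annotation and were not checked in these data. Whether the letters bear on the levels of these genes was not tested.

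Values are TPM, each transcript's share of its sample after division by transcript length, so levels can be compared between genes. Such shares do not hold the number of reads, which is unknown here, and the spread of the 4 samples of a group stands for the precision of a value. Columns summed to 975816 to 984871 TPM, and 11231 to 11498 genes reached 1 TPM per sample. Smpd3, the targeted gene, was lower in HKO cells under both treatments (log2 fold changes -2.39 ± 0.11 with vehicle and -2.42 ± 0.11 with palmitic acid, ± SE). With vehicle and palmitic acid its means were 5.3 and 7.8 TPM in HKO, and 32.0 and 46.0 TPM in FLOX. The rise with palmitic acid passed the test in both genotypes (0.52 ± 0.11 in FLOX and 0.49 ± 0.11 in HKO). FLOX palmitic acid replicate 1 lay farthest from its group mean over the tested genes, with a root mean square deviation of 0.276 on the log2 scale, against 0.248 in FLOX vehicle replicate 1 and 0.217 to 0.252 in the other 14 libraries. All 12 hepatocyte markers were detected. Of the macrophage markers only Cd68 averaged 1 TPM or more, with the Kupffer cell genes Clec4f, Vsig4 and Timd4 below 1 TPM in every sample, and all 8 lymphocyte and neutrophil markers stayed below 1 TPM. In bulk RNA, fewer cells of a type and less RNA per cell cannot be told apart.

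**Figure D1:**
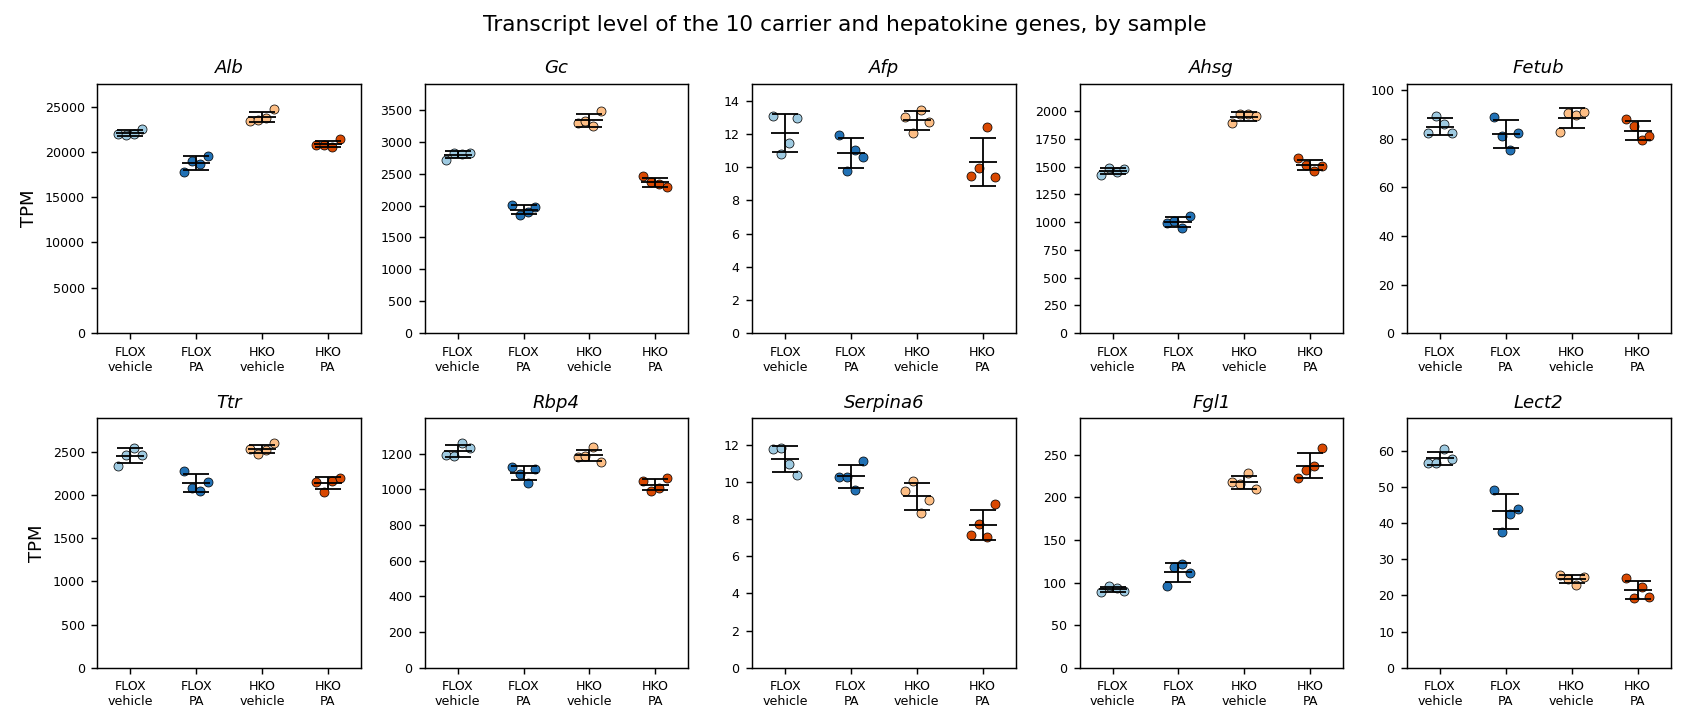
Transcript level (TPM, linear axes from 0) of the 10 genes in FLOX and HKO hepatocytes with vehicle or palmitic acid (PA); points are samples and bars the mean ± SD of 4. Fgl1 and Lect2 separate the genotypes, Gc and Ahsg separate all vehicle from palmitic acid samples within a genotype, and Fetub overlaps in every group.

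The 10 genes together made up 3.08% ± 0.036 of all TPM in FLOX cells with vehicle and 3.38% ± 0.068 in their HKO counterparts (mean ± SD, n = 4). With palmitic acid the sum was 2.58% ± 0.079 in FLOX and 2.89% ± 0.040 in HKO cells. No sample of one group overlapped another group in this sum. It fell by 0.501 percentage points with palmitic acid in FLOX and by 0.484 in HKO, and it was higher in HKO by 0.298 with vehicle and by 0.316 with palmitic acid. Each of these 4 differences had an exact permutation p of 0.0286 (two-sided, adjusted over the 4 comparisons 0.0286), the smallest that 4 against 4 samples allow. Alb alone was 71.8% to 74.5% of the sum in the group means, so the sum is mainly albumin mRNA. Without Alb the order of the groups was the same, from 0.658% in FLOX with palmitic acid to 0.952% in HKO with vehicle.

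Palmitic acid lowered most of the carriers in both genotypes. In FLOX cells 6 of the 10 genes fell, Alb, Gc, Ahsg, Ttr, Rbp4 and Lect2, and 1 rose, Fgl1, at a limma adjusted p under 0.05. Over all genes tested 34.4% passed this test, 23.0% higher and 11.5% lower, and the median log2 fold change was -0.18 for the 10 genes against 0.096 for all genes. In HKO cells 7 of the 10 fell, Alb, Afp, Ahsg, Ttr, Rbp4, Gc and Serpina6, and 0 rose, where 42.5% of all genes passed, 29.4% higher and 13.1% lower. The median there was -0.23 for the 10 genes and 0.11 for all. The vehicle and palmitic acid samples did not overlap for 7 of the 10 genes in FLOX, where 29.0% of all genes had no overlap, and for 5 of 10 in HKO, where 41.1% had none. Of the 12 hepatocyte markers 8 fell in each genotype, 0 rose in FLOX and 1 rose in HKO, Cyp2e1, a cytochrome P450, from 58.8 to 76.9 TPM on average. The summed level of the 12 was 19962 to 21043 TPM in FLOX with vehicle and 15125 to 18034 with palmitic acid, and 17654 to 18338 and 12994 to 13573 TPM in HKO, mostly from Apoa1, the main protein of high-density lipoprotein, at 15719 and 11673 TPM in the FLOX means. Their part in the falls of the carriers was not tested.

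Between genotypes, 4 of the 10 genes were higher in HKO cells under each treatment, Alb, Ahsg, Gc and Fgl1, and 2 were lower, Lect2 and Serpina6. Of all genes 11.7% passed the test with vehicle, 4.11% higher and 7.56% lower, and 9.74% with palmitic acid, 4.24% higher and 5.50% lower. FLOX and HKO samples did not overlap for 6 of the 10 genes with vehicle and for 6 with palmitic acid, against 17.8% and 13.9% of all genes. The median log2 difference was 0.070 over the 10 genes with vehicle (all genes -0.023) and 0.012 with palmitic acid (all genes -0.0077), with members in both directions. Of the 12 hepatocyte markers 2 were higher and 3 lower in HKO with vehicle, and 4 higher and 3 lower with palmitic acid. Cyp2e1 was among the lower under both treatments (-1.38 ± 0.063 and -1.04 ± 0.063), with vehicle means of 155 TPM in FLOX and 58.8 TPM in HKO. Cps1 was among the higher under both (0.41 ± 0.10 and 0.43 ± 0.10). Each group of samples enters both a treatment and a genotype comparison, so these comparisons share samples. The direction of calls over all genes moved with the scaling of the samples: 66.7% of the changed genes were higher with palmitic acid in FLOX, against 45.4% with median-ratio scaling. The corresponding shares were 69.3% and 47.0% in HKO, 35.2% and 56.6% for HKO against FLOX with vehicle, and 43.5% and 55.0% with palmitic acid.

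**Figure D2:**
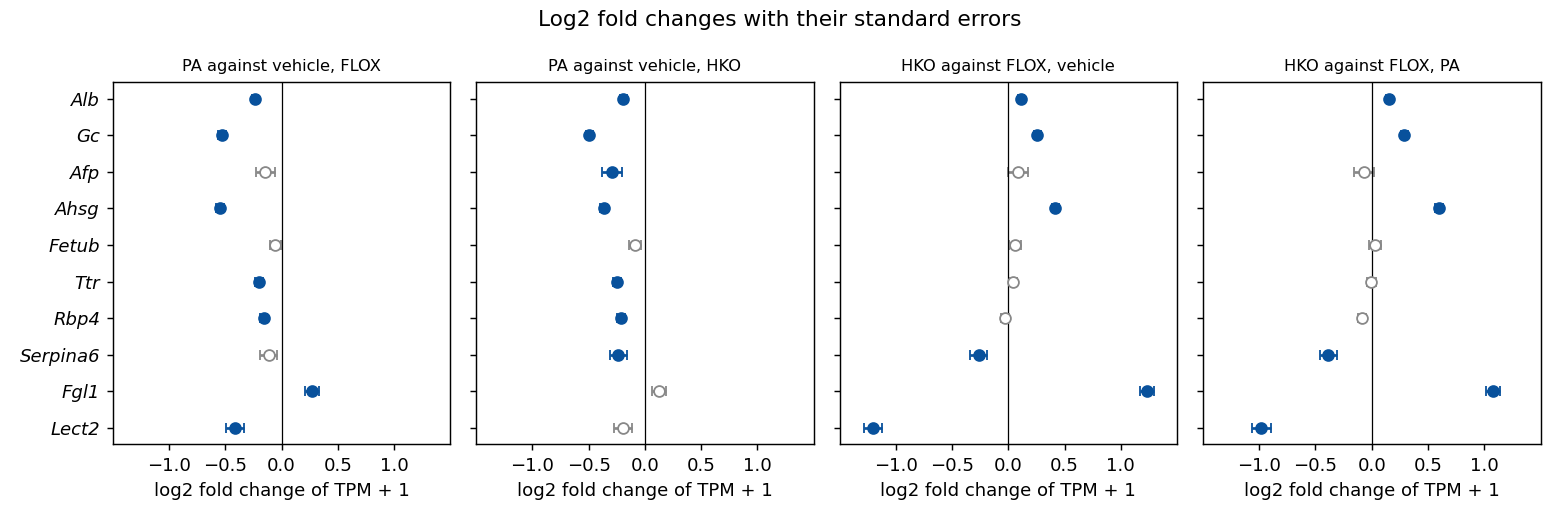
Log2 fold changes of TPM + 1 (points, with SE as bars, limma over 16 samples) of the 10 genes in the 4 comparisons, where PA is palmitic acid and filled points passed an adjusted p of 0.05. The treatment panels hold values from -0.55 (Ahsg in FLOX) to 0.27 (Fgl1 in FLOX), and the genotype panels reach 1.23 for Fgl1 and -1.20 for Lect2 with vehicle.

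Fgl1 and Lect2, the hepatokines, differed most between genotypes, in opposite directions. Fgl1 (ENSMUSG00000031594) stood at 89.1, 95.7, 93.4 and 90.2 TPM in the FLOX samples with vehicle and at 218, 216, 228 and 209 TPM in the HKO samples with vehicle. With palmitic acid the FLOX samples held 96.2, 118, 122 and 112 TPM and the HKO samples 222, 233, 237 and 258 TPM. Every HKO sample lay above every FLOX sample, whatever the treatment. Mean Fgl1 in HKO was 2.36 times that of FLOX with vehicle and 2.12 times with palmitic acid. The log2 fold changes were 1.23 ± 0.063 and 1.08 ± 0.063 (± SE, limma adjusted p = 3.27e-09 and 1.45e-08), which ranked 66 and 91 by size among the 11858 genes.

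Palmitic acid raised Fgl1 in FLOX cells from 92.1 ± 3.0 to 112 ± 11 TPM (mean ± SD, n = 4), a log2 fold change of 0.27 ± 0.063 (limma adjusted p = 0.00326). Replicate 1 of the palmitic acid group, at 96.2 TPM, lay just above the highest vehicle sample at 95.7 TPM. In HKO cells the means were 218 ± 7.7 and 237 ± 15 TPM and the groups overlapped (log2 fold change 0.12 ± 0.063, limma adjusted p = 0.132). Without FLOX palmitic acid replicate 1, whose removal changes the shared estimate of the spread, the HKO change passed the test at 0.12, and with median-ratio scaling it was -2.24e-05. The difference between the responses of the genotypes was -0.15 ± 0.089 (limma adjusted p = 0.746).

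Lect2 (ENSMUSG00000021539) showed the opposite order. The FLOX samples with vehicle stood at 56.55, 56.6, 60.6 and 57.7 TPM and the HKO samples with vehicle at 25.6, 24.5, 23.0 and 25.2 TPM. With palmitic acid FLOX samples held 49.2, 37.5, 42.4 and 44.0 TPM and HKO samples 24.8, 19.3, 22.2 and 19.6 TPM. The lowest FLOX sample, at 37.5 TPM, was above the highest HKO sample, at 25.6 TPM. Relative to FLOX, mean Lect2 in HKO was 42.4% with vehicle and 49.6% with palmitic acid. The log2 fold changes were -1.20 ± 0.081 and -0.98 ± 0.081 (limma adjusted p = 7.80e-08 and 6.96e-07), ranks 72 and 112 by size.

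Palmitic acid lowered Lect2 in FLOX cells from 57.9 ± 1.9 to 43.3 ± 4.8 TPM, with no overlap (log2 fold change -0.42 ± 0.081, limma adjusted p = 9.21e-04). In HKO cells the means were 24.6 ± 1.2 and 21.5 ± 2.6 TPM, and the change of -0.19 ± 0.081 missed the threshold (limma adjusted p = 0.0661). It passed under 6 of 27 alternative settings, among them median-ratio scaling (-0.31) and quantile normalization (-0.31). The interaction of 0.22 ± 0.11 did not pass (limma adjusted p = 0.695), so the fall in FLOX is not shown to be larger than that in HKO. The log2 ratio of Fgl1 to Lect2 was 0.62 to 0.76 in FLOX with vehicle, 0.97 to 1.65 in FLOX with palmitic acid, 3.06 to 3.31 in HKO with vehicle and 3.17 to 3.72 in HKO with palmitic acid. The genotypes were therefore separated by over a full unit of this ratio, while the treatments overlapped within HKO.

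**Figure D3:**
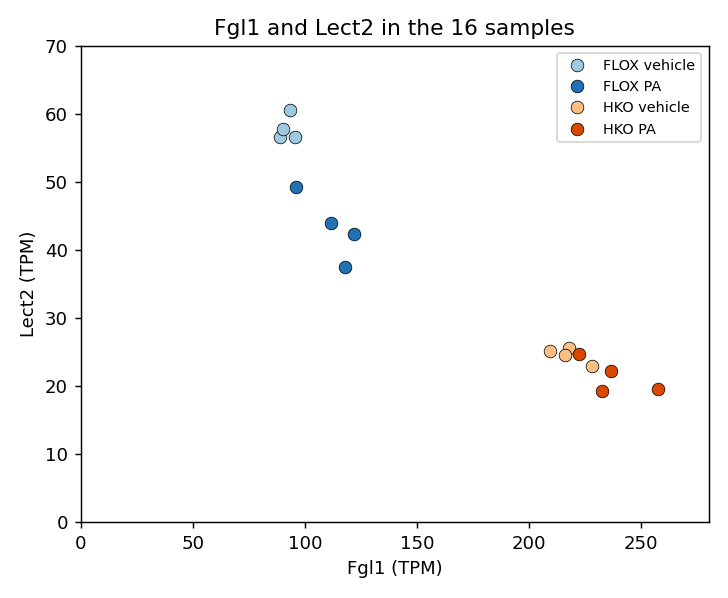
Lect2 against Fgl1 (TPM, linear axes from 0), 1 point per sample, coloured by group; PA is palmitic acid. The 8 HKO samples lie at 209 TPM or more of Fgl1 and 25.6 TPM or less of Lect2, apart from the 8 FLOX samples, and within FLOX the palmitic acid samples lie lower in Lect2 than all vehicle samples.

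The fetuins are encoded side by side on chromosome 16 (GRCm38.p6), and only Ahsg passed the tests. Ahsg (ENSMUSG00000022868), fetuin-A, stood at 1428, 1485, 1447 and 1483 TPM in FLOX samples with vehicle and at 994, 1008, 949 and 1052 TPM with palmitic acid. Among the HKO samples it held 1893, 1978, 1979 and 1955 TPM with vehicle and 1579, 1514, 1459 and 1508 TPM with palmitic acid. HKO cells with palmitic acid were thus at the level of FLOX cells with vehicle, and these neighbouring groups overlapped, while every other pair of groups was separate. Palmitic acid lowered Ahsg by 31.5% in FLOX and by 22.4% in HKO cells (log2 fold changes -0.55 ± 0.033 and -0.37 ± 0.033, limma adjusted p = 4.41e-09 and 3.12e-07). HKO cells held 1.34 times the FLOX level with vehicle and 1.51 times with palmitic acid (0.42 ± 0.033 and 0.60 ± 0.033, limma adjusted p = 3.63e-07 and 8.64e-09).

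The log2 change of Ahsg with palmitic acid was 0.18 ± 0.046 higher in HKO than in FLOX, the interaction with the lowest p among the 10 genes, and did not pass (limma adjusted p = 0.223, unadjusted p = 0.00129). By limma 0 of the 10 interactions passed the adjusted threshold and 1, that of Ahsg, had an unadjusted p under 0.05. Over all genes 0.194% passed and 7.53% had an unadjusted p under 0.05.

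Fetub (ENSMUSG00000022871), fetuin-B, held 82.3, 89.3, 86.1 and 82.4 TPM in FLOX with vehicle and 89.1, 81.15, 75.4 and 82.3 TPM with palmitic acid. In HKO it held 82.65, 90.6, 89.8 and 91.25 TPM with vehicle and 88.0, 85.2, 79.4 and 81.2 TPM with palmitic acid. All 4 groups overlapped with their neighbours in level. Its log2 fold changes ran from -0.085 ± 0.052 with palmitic acid in HKO to 0.058 ± 0.052 between genotypes with vehicle, and 0 of 4 passed (limma adjusted p = 0.202 to 0.842). With median-ratio scaling the fall in HKO passed, at -0.21.

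The difference between the fetuins was tested as a ratio within each sample, which multiplying a sample by a constant cannot change. The log2 ratio of Fetub to Ahsg was -4.10 ± 0.052 in FLOX with vehicle, -3.61 ± 0.089 in FLOX with palmitic acid, -4.46 ± 0.040 in HKO with vehicle and -4.18 ± 0.029 in HKO with palmitic acid (mean ± SD, n = 4). Vehicle and palmitic acid samples did not overlap in either genotype, nor did the genotypes under either treatment. Palmitic acid raised the ratio by 0.49 ± 0.051 in FLOX and by 0.28 ± 0.025 in HKO, and HKO cells were lower by 0.36 and 0.57 (differences of -0.36 ± 0.033 and -0.57 ± 0.047). Each of the 4 had an exact permutation p of 0.0286, the smallest possible, and an adjusted p of 0.0571 over the 8 ratio tests made, which misses 0.05.

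The next genes along chromosome 16, Hrg, Kng2 and Kng1, encode histidine-rich glycoprotein and the kininogens, all with cystatin-type domains. With palmitic acid all 3 fell in both genotypes, by 0.23, 0.18 and 0.22 in FLOX on the log2 scale for Hrg, Kng2 and Kng1 (-0.23 ± 0.045, -0.18 ± 0.044 and -0.22 ± 0.028). Hrg and Kng1 were higher in HKO with vehicle, by 0.28 ± 0.045 and 0.23 ± 0.028 (limma adjusted p = 7.06e-04 and 3.97e-05). Kng2 stood at 0.021 ± 0.044 there (limma adjusted p = 0.839). Of these 5 adjacent genes, Ahsg, Hrg and Kng1 were thus higher in HKO with vehicle, and Fetub and Kng2 did not pass.

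**Figure D4:**
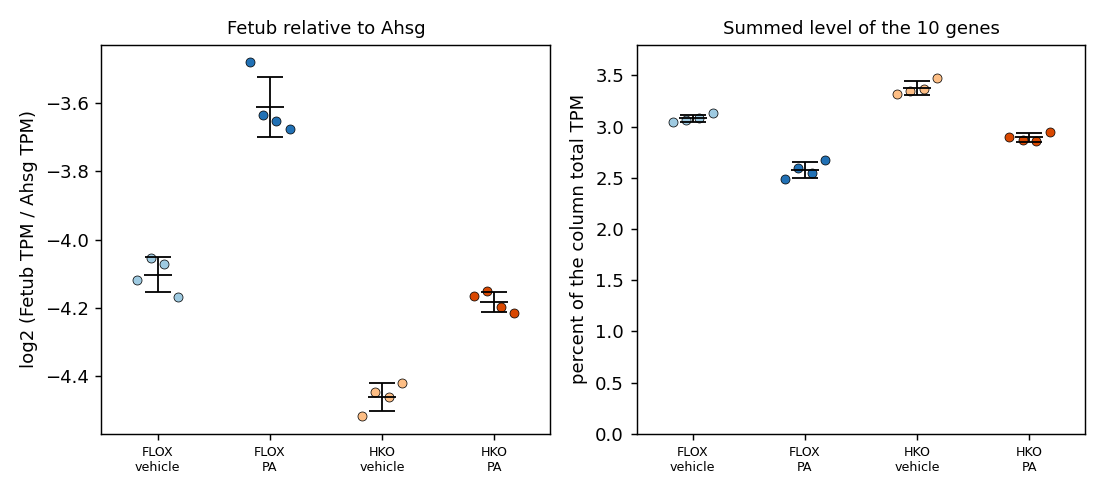
Left, log2 ratio of Fetub to Ahsg TPM; right, summed TPM of the 10 genes as a percent of the column total (axis from 0); points are samples and bars the mean ± SD of 4, and PA is palmitic acid. The 4 groups do not overlap in the sum. In the ratio FLOX with vehicle (-4.17 to -4.05) and HKO with palmitic acid (-4.22 to -4.15) overlap, and the other groups are apart.

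Alb (ENSMUSG00000029368) was the most abundant of the 10 transcripts in every sample. The FLOX samples held 21979.5, 21875, 22002 and 22511 TPM with vehicle and 17752, 19048, 18670.4 and 19600.2 TPM with palmitic acid. In the HKO samples it held 23467, 23576, 23757 and 24692 TPM with vehicle and 20808, 20766, 20592 and 21406 TPM with palmitic acid. No group overlapped another, in the order HKO vehicle, FLOX vehicle, HKO palmitic acid and FLOX palmitic acid. Palmitic acid lowered Alb by 15.0% in FLOX and by 12.5% in HKO (log2 fold changes -0.24 ± 0.029 and -0.19 ± 0.029, limma adjusted p = 1.27e-05 and 6.85e-05). HKO cells were 8.06% higher with vehicle and 11.3% higher with palmitic acid (0.11 ± 0.029 and 0.16 ± 0.029, limma adjusted p = 0.0200 and 0.00232). The genotype call with vehicle was lost in 6 of 27 alternatives, among them no filter on low values (adjusted p = 0.284), median-ratio scaling (0.0703) and leaving out FLOX vehicle replicate 2 (0.0551) or HKO vehicle replicate 4 (0.0609). With palmitic acid it was lost with no filter (adjusted p = 0.103). Quantile normalization, which gives each rank 1 value, set the Alb change to 0 with palmitic acid in HKO and between genotypes with vehicle.

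Gc (ENSMUSG00000035540), on the same chromosome as Alb and Afp, held the same order of groups as Alb, with larger fold changes; the difference between the genes was not tested. FLOX samples held 2718, 2834, 2814 and 2823 TPM with vehicle and 2008, 1855, 1905 and 1985 TPM with palmitic acid. HKO samples held 3292, 3333, 3256 and 3479 TPM with vehicle and 2464, 2375, 2347 and 2291 TPM with palmitic acid. As for Alb, no group overlapped another. Palmitic acid lowered Gc by 30.7% in FLOX and 29.1% in HKO (log2 fold changes -0.53 ± 0.032 and -0.50 ± 0.032, limma adjusted p = 4.70e-09 and 8.30e-09). HKO cells were higher by 19.4% with vehicle and 22.2% with palmitic acid (0.26 ± 0.032 and 0.29 ± 0.032, limma adjusted p = 5.62e-05 and 1.38e-05). The interaction was 0.034 ± 0.045 (limma adjusted p = 0.928).

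Afp (ENSMUSG00000054932), the fetal relative, lies next to Alb and was near the level of Serpina6, at 9.39 to 13.4 TPM over the 16 samples. Its means were 12.1 ± 1.1 and 10.8 ± 0.92 TPM in FLOX with vehicle and palmitic acid, and 12.8 ± 0.58 and 10.3 ± 1.4 TPM in HKO. The fall in HKO passed the test (log2 fold change -0.30 ± 0.088, limma adjusted p = 0.0134), although palmitic acid replicate 3, at 12.45 TPM, lay within the vehicle samples, which began at 12.1 TPM. The other 3 samples held 9.39 to 9.94 TPM. In FLOX the value was -0.14 ± 0.088 (limma adjusted p = 0.225), and the genotypes did not differ past the threshold under either treatment. The log2 ratio of Afp to Alb, which follows fetal against adult expression within a sample, lay between -11.2 and -10.5 in all samples. Its differences were 0.081 ± 0.11 and -0.13 ± 0.11 with palmitic acid in FLOX and HKO, and -0.022 ± 0.074 and -0.23 ± 0.14 between genotypes with vehicle and palmitic acid (exact permutation p = 0.486, 0.286, 0.743 and 0.143, adjusted over the 8 ratio tests 0.555, 0.381, 0.743 and 0.229). Without HKO palmitic acid replicate 3 the difference in HKO was -0.23, with an exact permutation p of 0.0286. Afm, afamin, the next gene after Afp, fell with palmitic acid in both genotypes (-0.22 ± 0.047 and -0.18 ± 0.047) and stood at 0.032 ± 0.047 between genotypes with vehicle (limma adjusted p = 0.746).

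Among the other fetal liver genes, 4 of the 8 listed were tested. The rest, Igf2, H19, Gpc3 and Dlk1, stayed at or below 0.11 TPM in every sample. With palmitic acid 34.4% of all genes passed in FLOX and 42.5% in HKO, in either direction. Of the 4, 1 rose and 3 fell in each genotype. Scd2, a desaturase, was among those that fell, with log2 fold changes of -1.75 ± 0.11 in FLOX and -2.22 ± 0.11 in HKO. Spink1, a trypsin inhibitor, stood at -0.97 ± 0.20 in FLOX and -1.12 ± 0.20 in HKO, and Ly6d rose by 0.46 ± 0.11 and 0.64 ± 0.11. Between genotypes 2 of the 4 were higher in HKO and 0 lower under each treatment. Of all genes 4.11% were higher with vehicle and 4.24% with palmitic acid. The 2 were Scd2 (1.00 ± 0.11 with vehicle and 0.53 ± 0.11 with palmitic acid) and Cd24a (0.33 ± 0.098 under each treatment).

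Ttr (ENSMUSG00000061808) and Rbp4 (ENSMUSG00000024990), whose proteins circulate as a complex, fell by 10.4% to 15.6% with palmitic acid and did not pass between genotypes in the limma test of TPM + 1. Ttr means were 2456 ± 85 and 2142 ± 105 TPM in FLOX with vehicle and palmitic acid, and 2533 ± 50 and 2138 ± 69 TPM in HKO. Rbp4 means were 1216 ± 34 and 1090.2 ± 39 TPM in FLOX and 1190.1 ± 33 and 1027 ± 33 TPM in HKO. Vehicle and palmitic acid samples did not overlap for either gene in either genotype. The falls of Ttr were 12.8% in FLOX and 15.6% in HKO (log2 fold changes -0.20 ± 0.036 and -0.24 ± 0.036, limma adjusted p = 6.00e-04 and 6.12e-05). Those of Rbp4 were 10.4% and 13.7% (-0.16 ± 0.033 and -0.21 ± 0.033, limma adjusted p = 0.00172 and 9.86e-05).

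Between genotypes Ttr stood at 0.045 ± 0.036 with vehicle and -0.0020 ± 0.036 with palmitic acid, and Rbp4 at -0.031 ± 0.033 and -0.086 ± 0.033 (limma adjusted p = 0.506, 0.986, 0.629 and 0.130). With quantile normalization Ttr passed with vehicle, at 0.14 (adjusted p = 0.0119). The sign of Ttr with palmitic acid was positive with median-ratio scaling (0.0063), quantile normalization (0.030) and sample quality weights (0.015). The log2 ratio of Ttr to Rbp4 lay between 0.94 and 1.17 in all 16 samples, a narrower range than that of the fetuins, from -4.52 to -3.48. The genotypes overlapped in this ratio with vehicle but not with palmitic acid. There the highest FLOX sample stood at 1.0228 and the lowest HKO sample at 1.0397, with means of 0.974 and 1.058. The difference in this ratio was not tested.

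Of the list of genes for vitamin A handling, 9 of 13 listed were tested; 5 fell and 0 rose with palmitic acid in FLOX, and 6 fell and 0 rose in HKO, where 11.5% and 13.1% of all genes fell. The list also holds Ttpa, a vitamin E transfer protein, which fell in both genotypes. Without it, 4 of 8 fell in FLOX and 5 of 8 in HKO. Stra6l, a receptor for retinol-binding protein in liver, fell from 25.4 ± 1.3 to 15.3 ± 1.4 TPM in FLOX and from 35.4 ± 2.2 to 19.97 ± 0.99 TPM in HKO. It was higher in HKO with vehicle, by 0.47 ± 0.065 on the log2 scale (limma adjusted p = 1.92e-04). Dhrs3, which reduces retinaldehyde, fell from 2.34 ± 0.36 to 0.613 ± 0.36 TPM in FLOX and from 2.88 ± 0.59 to 0.958 ± 0.38 TPM in HKO. Aldh1a1, a retinaldehyde dehydrogenase, was lower in HKO under both treatments (-0.29 ± 0.065 with vehicle and -0.26 ± 0.065 with palmitic acid, limma adjusted p = 0.00774 and 0.0172). Between genotypes 1 of the 9 was higher and 2 lower under each treatment, where 11.7% of all genes passed with vehicle and 9.74% with palmitic acid.

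Serpina6 (ENSMUSG00000060807), the glucocorticoid carrier, was the one carrier of the 10 that passed as lower in HKO cells. FLOX samples held 11.8, 11.85, 11.0 and 10.4 TPM with vehicle and 10.25, 10.3, 9.57 and 11.1 TPM with palmitic acid. HKO samples held 9.51, 10.03, 8.33 and 9.01 TPM with vehicle and 7.13, 7.72, 7.06 and 8.79 TPM with palmitic acid. The genotypes did not overlap under either treatment, and the treatments overlapped in both genotypes. HKO cells were lower by 18.01% with vehicle and by 25.5% with palmitic acid (log2 fold changes -0.26 ± 0.076 and -0.38 ± 0.076, limma adjusted p = 0.0355 and 0.00389). The call with vehicle was lost in 11 of 27 alternatives, with adjusted p from 0.0528 to 0.115, among them median-ratio scaling and the removal of any of FLOX vehicle replicates 1, 2 and 3 or HKO vehicle replicates 1, 3 and 4. The call with palmitic acid was kept in all 27. Palmitic acid lowered it in HKO by 0.24 on the log2 scale (-0.24 ± 0.076, limma adjusted p = 0.0196), a call lost without HKO palmitic acid replicate 1 or 3 or HKO vehicle replicate 1 or 2 (adjusted p = 0.0509 to 0.0613), and in FLOX the value was -0.12 ± 0.076 (limma adjusted p = 0.256).

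Serpina7, the thyroxine-binding globulin and another hormone carrier of the serpin family, was likewise lower in HKO with vehicle. It held 11.7 ± 1.8 TPM in FLOX and 4.42 ± 1.2 TPM in HKO (log2 fold change -1.25 ± 0.20, limma adjusted p = 4.97e-04). With palmitic acid the values were 4.58 ± 0.72 and 2.90 ± 1.1 TPM (-0.55 ± 0.20, limma adjusted p = 0.0939). Of 12 tested genes that handle thyroid hormone, vitamin D and glucocorticoids, 6 fell and 0 rose with palmitic acid in FLOX, and 5 fell and 1 rose in HKO, where 34.4% and 42.5% of all genes passed in either direction. The glucocorticoid-responsive genes Tsc22d3 and Fkbp5 were among those that fell, at -0.56 ± 0.065 and -0.49 ± 0.069 in FLOX and -0.48 ± 0.065 and -0.65 ± 0.069 in HKO. Per1, a clock gene also induced by glucocorticoids, rose in HKO by 0.36 ± 0.11. Between genotypes with vehicle 1 of the 12 was higher and 2 lower, where 4.11% of all genes were higher and 7.56% lower. Hsd11b1, which regenerates active glucocorticoid, was the one higher, at 172 ± 5.1 TPM in FLOX and 210.5 ± 2.8 TPM in HKO, and Cyp2r1, a vitamin D 25-hydroxylase, was lower, at 8.40 ± 1.1 and 6.38 ± 0.39 TPM.

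The other carrier proteins, 12 genes that do not belong to the 10, gave counts of the same kind. With palmitic acid 10 of 12 fell and 1 rose in FLOX, and 9 fell and 0 rose in HKO, with medians of -0.23 and -0.22. Of all genes 11.5% fell and 23.0% rose in FLOX, and 13.1% fell and 29.4% rose in HKO. Transferrin, Trf, which carries iron, fell from 13070.2 ± 461 to 9604 ± 256 TPM in FLOX and from 17491 ± 706 to 11537 ± 609 TPM in HKO. Ceruloplasmin, Cp, a copper protein, fell by 0.39 and 0.37 (-0.39 ± 0.067 and -0.37 ± 0.067), and Apom, which carries sphingosine-1-phosphate, by 0.36 and 0.31 (-0.36 ± 0.054 and -0.31 ± 0.054). Between genotypes 4.11% of all genes were higher and 7.56% lower with vehicle, and 4.24% higher and 5.50% lower with palmitic acid. With vehicle 6 of the 12 were higher in HKO and 2 lower, and with palmitic acid 5 were higher and 1 lower. Trf was among the higher (0.42 ± 0.040 with vehicle), as were Tcn2, a vitamin B12 carrier (0.32 ± 0.060 with palmitic acid), and Cp (0.30 ± 0.067 with palmitic acid). Pon1, the paraoxonase of high-density lipoprotein, was lower in HKO under both treatments, at 90.4 ± 1.8 and 70.5 ± 1.5 TPM with vehicle and 91.8 ± 3.3 and 71.7 ± 2.5 TPM with palmitic acid.

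The other genes listed as hepatokines, Erfe among them, did not follow one direction. Of 19 tested, 4 rose and 10 fell with palmitic acid in FLOX, and 4 rose and 9 fell in HKO. Of all genes 23.0% rose and 11.5% fell in FLOX, and 29.4% rose and 13.1% fell in HKO. Erfe, erythroferrone, which represses hepcidin, rose from 2.29 ± 0.44 to 15.9 ± 2.6 TPM in FLOX and from 2.29 ± 0.38 to 12.4 ± 1.1 TPM in HKO. Hamp, hepcidin, the iron-regulating hormone, fell from 10779.9 ± 433 to 3177 ± 838 TPM in FLOX and from 7465 ± 400 to 2435 ± 493 TPM in HKO. Whether Erfe had a part in the fall of Hamp was not tested. Angptl4, an inhibitor of lipoprotein lipase, rose from 122 ± 7.7 to 319 ± 9.8 TPM in FLOX and from 73.2 ± 4.3 to 223 ± 12 TPM in HKO. These changes were larger than that of any of the 10 genes with palmitic acid.

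Between genotypes 5 of the 19 were higher and 4 lower with vehicle, and 5 higher and 2 lower with palmitic acid. Of all genes 4.11% were higher and 7.56% lower with vehicle, and 4.24% higher and 5.50% lower with palmitic acid. Igfbp2, a carrier of insulin-like growth factors, was lower in HKO (-1.13 ± 0.051 with vehicle and -1.07 ± 0.051 with palmitic acid), at 138 ± 3.3 and 62.7 ± 3.4 TPM with vehicle and 129 ± 8.3 and 60.9 ± 3.1 TPM with palmitic acid. Igfbp1, its insulin-repressed relative, stood at 258 ± 5.3 TPM in FLOX against 486 ± 12 TPM in HKO with palmitic acid. It was the only one of the 19 whose interaction passed (0.33 ± 0.047, limma adjusted p = 0.0115), where 0.194% of all genes passed. Enho, adropin, was higher in HKO by 0.84 ± 0.18 with vehicle and 0.90 ± 0.18 with palmitic acid, at levels of 1.83 to 5.54 TPM in the group means.

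**Figure D5:**
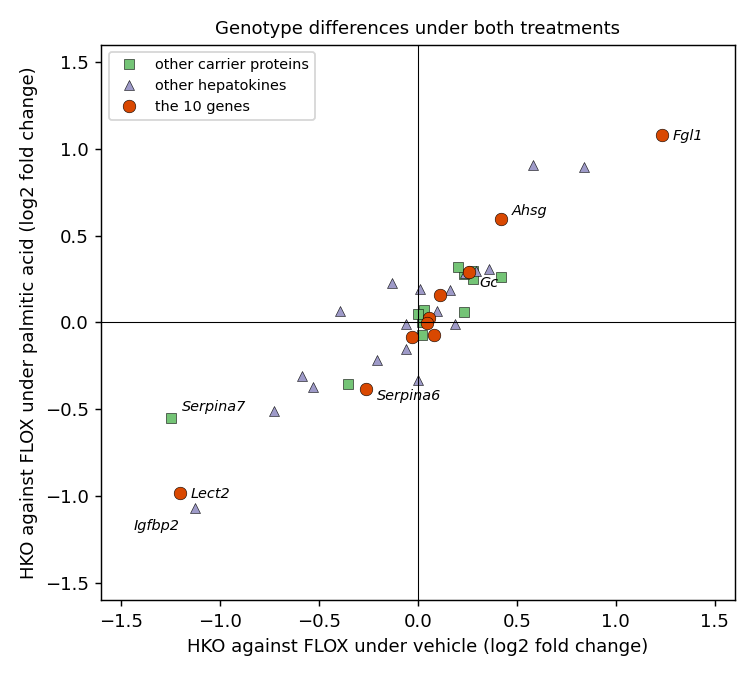
Log2 fold change of HKO against FLOX with palmitic acid against that with vehicle, for the 10 genes (circles), 12 other carriers (squares) and 19 other hepatokines (triangles); the axes use different samples. Fgl1 lies at the upper right at 1.23 and 1.08, Lect2 at the lower left at -1.20 and -0.98 beside Igfbp2, and Serpina7 at -1.25 and -0.55.

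Of 13 listed receptors and partners of these proteins, 7 passed the filter. Fcgrt, the neonatal Fc receptor that rescues albumin from breakdown, rose with palmitic acid in FLOX from 32.3 ± 1.8 to 39.4 ± 2.6 TPM (0.28 ± 0.059, limma adjusted p = 0.00208). Its partner B2m was higher in HKO with vehicle, by 0.16 ± 0.026 (limma adjusted p = 7.87e-04). Asgr1, the receptor that clears desialylated plasma proteins, fell with palmitic acid in both genotypes and was lower in HKO, at 317 ± 6.8 and 279 ± 6.0 TPM with vehicle and 267 ± 5.9 and 221 ± 14 TPM with palmitic acid. In all, 1 of the 7 rose and 3 fell with palmitic acid in FLOX, where 34.4% of all genes passed, and 0 rose and 3 fell in HKO, a share near the 42.5% of all genes. Under each treatment 1 of the 7 was higher and 1 lower in HKO, where 11.7% of all genes passed with vehicle and 9.74% with palmitic acid.

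Of the liver transcription factors, 15 of 16 listed were tested. With palmitic acid 3 fell and 1 rose in FLOX, where 34.4% of all genes passed in either direction. In HKO 4 fell and 3 rose, where 42.5% of all genes passed. Foxa1 was among those that rose in HKO (0.55 ± 0.11). Onecut1, a homeobox factor, fell in both genotypes (-0.44 ± 0.15 in FLOX and -1.15 ± 0.15 in HKO), at levels of 0.608 to 2.55 TPM. With vehicle 1 factor was higher in HKO, Onecut1 (0.55 ± 0.15), and with palmitic acid 2 were, Cebpb and Cebpa (0.68 ± 0.17 and 0.30 ± 0.077), which bind many liver promoters. None was lower in either comparison. Of all genes 11.7% passed between genotypes with vehicle and 9.74% with palmitic acid.

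The tested gene outside the 10 whose profile over the 16 samples lay closest was found for each by the root mean square difference of centred log2 values. For Lect2 it was Fitm1, at 0.119 against a spread of 0.579 for Lect2 itself, with group means of 4.98 and 3.48 TPM in FLOX with vehicle and palmitic acid and 1.84 and 1.47 TPM in HKO. For Ahsg it was Itih4 (0.070 against 0.346), at 350.2, 238, 455 and 333 TPM in FLOX with vehicle, FLOX with palmitic acid, HKO with vehicle and HKO with palmitic acid. For Gc it was Hsd17b2 (0.066 against 0.293) and for Ttr Gstp1 (0.029 against 0.120). Fgl1 had the largest distance of the 10, to Noct (0.185), but also the largest spread (0.593). Noct stood at 23.9, 24.0, 43.2 and 52.2 TPM in the same order of groups. Alb lay nearest to Got1 (0.043 against 0.131), Rbp4 to Slc25a3 (0.043 against 0.105), Serpina6 to Akr1b3 (0.096 against 0.206) and Afp to Pla1a (0.091 against 0.159). For Fetub, which varied least, the distance to Pgrmc2 (0.053) was close to the spread of Fetub itself (0.076).

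Markers of other cell types moved with genotype or treatment in part. The summed level of the 7 cholangiocyte markers was 181 to 192 TPM in FLOX and 299 to 325 TPM in HKO with vehicle, and 197 to 243 and 338 to 386 TPM with palmitic acid, mostly from Spp1 (149 ± 6.0 TPM in FLOX and 274 ± 12 TPM in HKO with vehicle), while Epcam and Cftr were below 1 TPM in every sample. Of the 4 cholangiocyte markers tested, 2 fell and 2 rose with palmitic acid in each genotype. The cytokeratins Krt7 and Krt19 fell while the sum was higher (-1.38 and -0.67 in FLOX, -0.99 and -1.02 in HKO on the log2 scale). Sox9 was among those that rose (0.41 in FLOX and 0.62 in HKO). With vehicle Krt7 was lower in HKO (-0.61, limma adjusted p = 0.00112) and Krt19 higher (0.43, limma adjusted p = 0.0319). The 9 macrophage markers summed to 48.9 to 55.6 and 60.8 to 70.3 TPM in FLOX and HKO with vehicle, and to 56.1 to 68.6 and 81.5 to 107.5 TPM with palmitic acid, mostly from Cd68. The 8 stellate cell markers summed to 12.8 to 19.4 TPM with vehicle and 30.9 to 41.5 TPM with palmitic acid, mostly from Ecm1 (16.1 and 36.4 TPM in the FLOX means, 13.4 and 38.3 TPM in the HKO means), while Col1a1, Col3a1, Des, Pdgfrb, Reln and Rgs5 were below 1 TPM throughout. The 8 endothelial markers summed to 5.14 to 9.14 TPM and the 5 erythroid markers to 21.1 to 25.1 TPM over all samples. Of the 4 endothelial markers tested, Stab2 was higher in HKO with vehicle (0.55, limma adjusted p = 0.00853), at 0.698 TPM in FLOX and 1.52 TPM in HKO. It fell with palmitic acid in HKO (-0.41, limma adjusted p = 0.0142), and the other 3 did not pass in either comparison. Like Fgl1, Spp1 and Cd68 were higher in HKO under both treatments. Cd68 also rose with palmitic acid, and its mean in FLOX with palmitic acid (64.1 TPM) was near that in HKO with vehicle (62.4 TPM). Their part in the difference of Fgl1 was not tested.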

How the data were processed

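RNA of 16 samples was sequenced from stranded total RNA libraries, per the labels' protocols. The values deposited by the authors are TPM with 2 decimals. RSEM 1.3.3 and a human genome build are listed per the submitters' processing notes; that build cannot be that of mouse IDs, so positions come only from RefSeq, and the aligner is not given in the sources used here, nor is the annotation. Symbols matched 52083 of 55416 IDs. Genes of at least 1 TPM in at least 4 samples (11858) were tested on log2(TPM + 1), a scale that understates changes of low genes, with limma 3.58.1 (R 4.3.3): 1 fit of 16 samples, a mean per group, a mean-variance trend, two-sided, Benjamini-Hochberg over all genes tested, threshold 0.05. In a test on simulated data, 132 of 200 genes changed by 0.5 with palmitic acid in FLOX were recovered among 11858, with 11 false calls. Sums and ratios used exact permutation tests. Group comparisons came from the sample labels, and percent changes and times are ratios of mean TPM.

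The 10 genes and the 14 lists (151 genes) were chosen with earlier results of these data known. Named genes were the 10, Smpd3, up to 3 per list and comparison of the most changed genes passing the test, and the nearest gene to each of the 10; Afm, Hrg, Kng1 and Kng2 were added as chromosomal neighbours, and marker genes and some comparisons of named genes outside this rule after their values were seen. Some genes of the lists are not reported here. The settings varied one at a time were the pseudocount (0.1), the filter (none, or 5 TPM), the scaling (median-ratio, quantile, or a total without the 10 genes), the variance model (no trend, quality weights per sample), the samples fitted (the compared groups alone), a block for the replicate number, and the removal of single samples or of both FLOX libraries numbered 1.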

Additional observations from a re-analysis of the deposited data

Results flagged for a closer look

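Fetub in HKO cells with vehicle had 1 sample far from the other 3: replicate 1 held 82.65 TPM, and the others 89.8 to 91.25 TPM. The gap to the nearest sample was 0.831 of the group's range, just above Dixon's 95% critical value for 4 samples. Chance flags about 1 in 20 groups, and this was 1 of 52 groups looked at.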

How the results depend on the processing

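Of the calls among the 10 genes, 7 of 7 with palmitic acid in FLOX, 5 of 7 in HKO, 4 of 6 between genotypes with vehicle and 5 of 6 with palmitic acid were kept in all 27 alternatives, and 0 reversed. The exceptions were Alb and Serpina6. Without both FLOX libraries numbered 1 the numbers of genes called were 7, 9, 5 and 6. Over all genes, 669 were called between genotypes with palmitic acid when only the groups compared were fitted (1155 in the full fit). For the interaction the 23 calls over all genes became 9 with median-ratio scaling, 5 with no trend, 3 with the replicate block and 40 with sample quality weights, and 8 to 24 when leaving out each sample in turn. The causes were not tested.

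Reversed signs concerned values that had not passed the test. Fgl1 with palmitic acid in HKO was -2.24e-05 with median-ratio scaling, and Rbp4 between genotypes with vehicle was 0.0061 with quantile normalization. Ttr between genotypes with palmitic acid was 0.0063 with median-ratio scaling, 0.030 with quantile normalization, 0.0018 when rescaled without the 10 genes, 0.015 with quality weights and 0.029 without both FLOX libraries numbered 1, and -0.024 to 0.029 leaving out single samples. Fetub ran from -0.013 to 0.067 in the same comparison leaving out single samples. In the interaction Fetub ran from -0.071 to 0.0088, and without both FLOX libraries numbered 1 Fetub was 0.024 and Ttr 0.0069. The log2 ratio of Afp to Alb between genotypes with vehicle ran from -0.070 to 0.021 leaving out single samples, with 0.021 without both libraries, and its change with palmitic acid in HKO ran from -0.23 to -0.077.

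Without both FLOX libraries numbered 1 the change of the sum with palmitic acid in FLOX was -0.48 percentage points and that of the Fetub to Ahsg ratio 0.44. Both keep 3 against 3 samples there, so the exact p of 0.10 is the smallest possible. In all other settings run, the sums and the Fetub to Ahsg ratio kept an exact p of 0.0286. It is the smallest possible p in those settings too, so it does not measure how firm the differences are.

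The titles give the groups the same replicate numbers. The deviations of same-numbered libraries from their group means correlated at -0.15 to 0.11, so the numbers were not taken as pairs. A library correlated best with its own number for 1 of 8 libraries between the FLOX groups and 4 of 8 between the HKO groups. Across genotypes it did so for 4 of 8 between the palmitic acid groups and 0 of 8 between the vehicle groups. With the replicate block the calls among the 10 genes numbered 7, 7, 6 and 6, as without it. The read depth, which TPM does not hold, could not be weighed.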
